A study of Mus musculus with 4 samples.

Results

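The 10 genes described here encode transcription factors of the T, B and natural killer (NK) lymphocyte lineages: Satb1, Tcf7, Lef1, Bcl11b, Ets1, Ikzf1, Ikzf3, Runx3, Tbx21 and Eomes. They were taken by symbol from the deposited expression table, and all 10 had a row among the 23951 gene rows used. The table gives FPKM, a read count divided by the length of the transcript and by the size of the library. Cells were sorted for yellow fluorescent protein (YFP) from mammary tumors of female mice, and their RNA was sequenced. All mice carried the MMTV-PyMT transgene, in which a mammary tumor virus promoter drives the polyoma middle T antigen, and the R26Y allele, a Rosa26 reporter that makes YFP once Cre has removed a stop cassette. All had received Ad-K8-Cre, an adenovirus with Cre under the Krt8 promoter, into the mammary ducts 2 to 3 months earlier. There were 2 libraries labelled Lsd1 knockout, from mice with conditional Lsd1 alleles (Lsd1L/L), and 2 labelled wild-type (Lsd1+/+). Both samples titled knockout carry Lsd1+/+ in another label, for tissue, so they are called the libraries labelled knockout, or knockout-labelled. The ages of the mice are not given in the labels, nor is it said that the libraries came from separate animals. The p-values therefore measure only the spread between these libraries, which may be technical.

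LSD1, encoded by Kdm1a, removes methyl groups from histone lysines within repressor complexes. Kdm1a was at 20.2 and 22.8 FPKM in the knockout-labelled libraries, against 52.5 and 22.9 FPKM in the wild-type libraries. The difference was -0.67 in log2(FPKM + 1) (SE 0.46, n = 2 each; limma, adjusted p = 0.338), which is within the spread between replicates. Against wild-type 2 alone it was -0.09, and against wild-type 1 alone -1.25. The FPKM columns summed to 401786 to 449838, and low values stepped with whole reads in a way that put the depths within 0.849 to 1.03 of the second library labelled knockout. The pair labelled knockout was more alike than the wild-type pair, with Pearson correlations of 0.983 and 0.847 over 11138 genes.

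The factors act in layers. TCF-1 (Tcf7) and LEF-1 (Lef1) are related HMG-box proteins that bind DNA and recruit beta-catenin or Groucho repressors; TCF-1 and BCL11B set up and hold the T cell programme in the thymus. IKAROS (Ikzf1) and AIOLOS (Ikzf3) are zinc finger proteins of lymphocyte development, SATB1 organizes chromatin in thymocytes, and ETS1 and RUNX3 bind many enhancers of T and NK cell genes. T-bet (Tbx21) and EOMES are T-box factors of effector T cells and NK cells.

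Promoter windows were read for the 8 factors with an entry in RefSeq (build GRCm38.p6, another build than the mm9 of the data). Each window was the 250 bases before the most upstream listed start, read to ask which hold short core motifs of the factors' own families. The Tcf7 window holds an ATG followed by an open reading frame that runs to its end. It may therefore be coding sequence, and the search does not cover a promoter of Tcf7 that lies elsewhere. The motifs, searched on both strands, were CTTTGA (TCF/LEF), CCGGAA (ETS), TGTGGT (RUNX), TGGGAA (Ikaros) and AGGTGT (T-box). The 3 promoters with a match are shown, in the direction of the gene, with matches in capitals: Bcl11b has a TCF/LEF match, Runx3 has 2 RUNX matches and an Ikaros match, and Tbx21 has an Ikaros match.
Bcl11b, chr12:108003415-108003664, minus strand: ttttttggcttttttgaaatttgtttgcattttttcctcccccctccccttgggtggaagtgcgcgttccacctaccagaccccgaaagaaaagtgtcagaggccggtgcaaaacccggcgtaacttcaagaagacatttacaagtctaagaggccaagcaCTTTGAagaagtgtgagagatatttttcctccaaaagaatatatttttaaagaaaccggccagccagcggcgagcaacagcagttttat
Runx3, chr4:135120395-135120644, plus strand: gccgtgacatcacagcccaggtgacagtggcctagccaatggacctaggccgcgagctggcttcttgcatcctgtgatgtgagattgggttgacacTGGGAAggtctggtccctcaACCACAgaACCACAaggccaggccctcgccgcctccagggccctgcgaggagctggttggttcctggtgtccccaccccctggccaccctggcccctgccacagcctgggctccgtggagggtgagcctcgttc
Tbx21, chr11:97115332-97115581, minus strand: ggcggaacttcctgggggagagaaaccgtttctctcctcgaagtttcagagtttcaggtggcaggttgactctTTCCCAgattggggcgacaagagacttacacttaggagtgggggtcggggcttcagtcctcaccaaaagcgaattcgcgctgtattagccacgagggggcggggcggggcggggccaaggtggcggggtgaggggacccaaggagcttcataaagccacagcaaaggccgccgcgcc
Among the 8 factors 1 window held the TCF/LEF letters, 1 the RUNX letters and 2 the Ikaros letters, while none held the ETS or T-box letters. Over all 32851 RefSeq windows of this length the share with a match was 13.8% for TCF/LEF, 14.0% for RUNX, 21.6% for Ikaros, 12.0% for ETS and 11.8% for T-box. A match describes these letters and does not show that a factor binds. Only the listed letters were searched, so a window without a match may hold another form of the motif.

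All 10 factors were higher in both libraries labelled knockout than in either wild-type library. The sum over the 10 genes was 466 and 439 FPKM in the knockout-labelled libraries, against 17.6 and 27.4 FPKM in the wild-type libraries. Of the 10, 9 rose past an adjusted p of 0.05, none fell and Runx3 did not pass, where 9.51% of the 11138 tested genes rose and 6.99% fell. The median difference was 3.22 over the 10 factors and 0.08 over all tested genes. The ordering of all 4 libraries seen in the factors, with no overlap between the groups, was also found in 39.3% of tested genes. With a difference of at least 2 besides, it was found in 5.03%. A gene was tested where at least 2 libraries had at least 1 FPKM, and Bcl11b, Ikzf3, Tbx21 and Eomes met that through the libraries labelled knockout alone. A gene that enters the test in this way had to differ, so the count and the median describe the list and support nothing further. No call held when either of the libraries labelled knockout was left out: 0 of 11138 genes then passed in limma (1385 and 1346 at an unadjusted p under 0.05 without the first and the second; 9 of the 10 factors in each), although all 10 differences stayed positive.

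**Figure D1:**
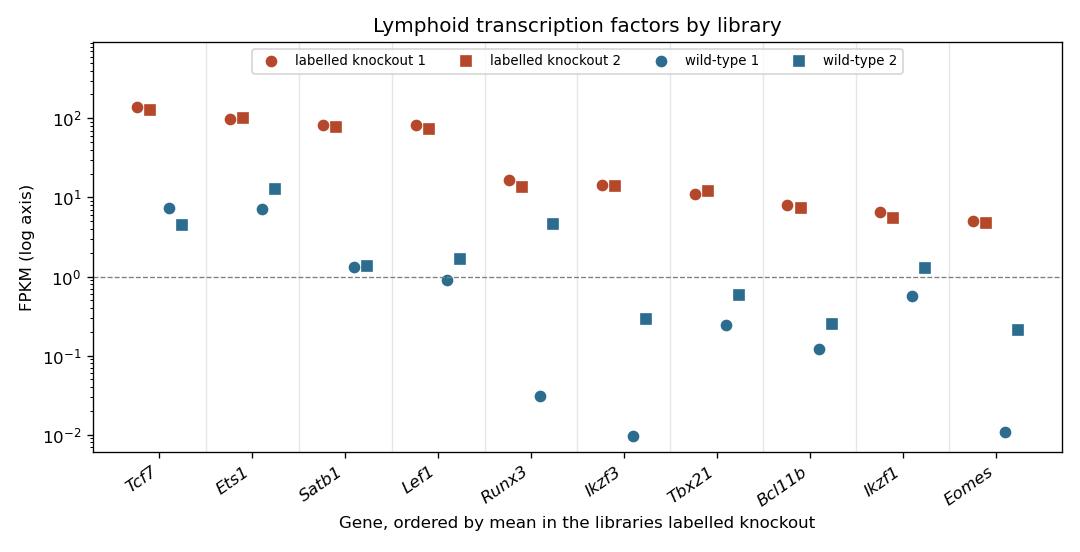
FPKM of the 10 factors (log axis) in each library; circles are replicate 1 and squares replicate 2, red for the libraries labelled knockout and blue for wild-type, and the dashed line marks 1 FPKM. The red pairs lie close together and above both blue points for every gene, while the blue points of Runx3, Ikzf3 and Eomes are far apart.

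The 4 factors that stood well above the others in the libraries labelled knockout were Tcf7, Ets1, Satb1 and Lef1. Tcf7 was at 141 and 129 FPKM in the knockout-labelled libraries, against 7.28 and 4.43 FPKM in wild-type. It rose by 4.34 in log2(FPKM + 1) (SE 0.28; limma, adjusted p = 0.024), and its mean FPKM was 23.0-fold higher. Lef1 was at 82.7 and 73.6 FPKM in the knockout-labelled libraries, against 0.897 and 1.65 FPKM in wild-type, and rose by 5.14 (SE 0.26; limma, adjusted p = 0.024), a 61.4-fold higher mean. Lef1 and Satb1 had the largest differences of the 10 with a pseudocount of 1, but with 0.1 Ikzf3 was largest (6.09, against 5.89 for Lef1 and 5.80 for Satb1), and with 0.01 both Ikzf3 (7.51) and Eomes (6.16) lay above Lef1 (5.99). In FPKM as deposited, Tcf7, which shares its DNA-binding domain type with Lef1, was the only one of the 10 lower in the second wild-type library than in the first. Satb1 was nearly equal there (1.30 FPKM in the first, 1.37 FPKM in the second). Since the FPKM columns of these libraries summed to 402436 and 449838, the order of Satb1 depends on the scaling.

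Satb1 was at 82.1 and 78.2 FPKM in the knockout-labelled libraries, against 1.30 and 1.37 FPKM in wild-type. Both pairs were tight, and its difference of 5.12 (SE 0.19; limma, adjusted p = 0.0227) had the smallest standard error of the 10. Its mean was 60.0-fold higher. Bcl11b was at 7.95 and 7.33 FPKM in the knockout-labelled libraries, against 0.122 and 0.249 FPKM in wild-type, a difference of 2.87 (SE 0.21; limma, adjusted p = 0.024). The pseudocount of 1 understates such a change of a low gene: on the means of FPKM, Bcl11b was 41.2-fold higher.

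The genes of the Ikaros family were low in wild-type, Ikzf3 more so than Ikzf1. Ikzf1 was at 6.45 and 5.53 FPKM in the knockout-labelled libraries, against 0.567 and 1.29 FPKM in wild-type. Its difference of 1.88 (SE 0.29; limma, adjusted p = 0.036) was the smallest of the 10 and its call was lost with a pseudocount of 0.01 (adjusted p = 0.0573). Ikzf3 was at 14.3 and 13.8 FPKM in the knockout-labelled libraries, against 0.00970 and 0.293 FPKM in wild-type, and rose by 3.72 (SE 0.24; limma, adjusted p = 0.024). The lower wild-type value is worth roughly 1 read at an approximate depth of 24000000 reads, so no fold is given against it. The call of Ikzf3 was also lost with a pseudocount of 0.01 (adjusted p = 0.0607).

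Ets1, the member with the highest wild-type level, was at 98.8 and 101 FPKM in the knockout-labelled libraries, against 7.15 and 12.7 FPKM in wild-type. It rose by 3.26 (SE 0.32; limma, adjusted p = 0.0243), a 10.1-fold higher mean. Runx3 was at 16.7 and 13.4 FPKM in the knockout-labelled libraries, against 0.0307 and 4.61 FPKM in wild-type. Its wild-type libraries thus differed from each other far more than any other member's on the log2 scale. The difference of 2.73 (SE 0.91; limma, adjusted p = 0.112) did not pass, and it was 1.51 against wild-type 2 alone and 3.95 against wild-type 1 alone. The first wild-type value of Runx3 is worth roughly 3 reads.

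The T-box genes were low in wild-type. Tbx21 was at 11.2 and 12.1 FPKM in the knockout-labelled libraries, against 0.241 and 0.583 FPKM in wild-type, a rise of 3.17 (SE 0.25; limma, adjusted p = 0.024) and of 28.3-fold on mean FPKM. Eomes was at 5.04 and 4.70 FPKM in the knockout-labelled libraries, against 0.0109 and 0.211 FPKM in wild-type, a rise of 2.41 (SE 0.21; limma, adjusted p = 0.0243). The lower wild-type value of Eomes is again worth roughly 1 read, and with a pseudocount of 0.01 its call was lost (adjusted p = 0.069).

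**Figure D2:**
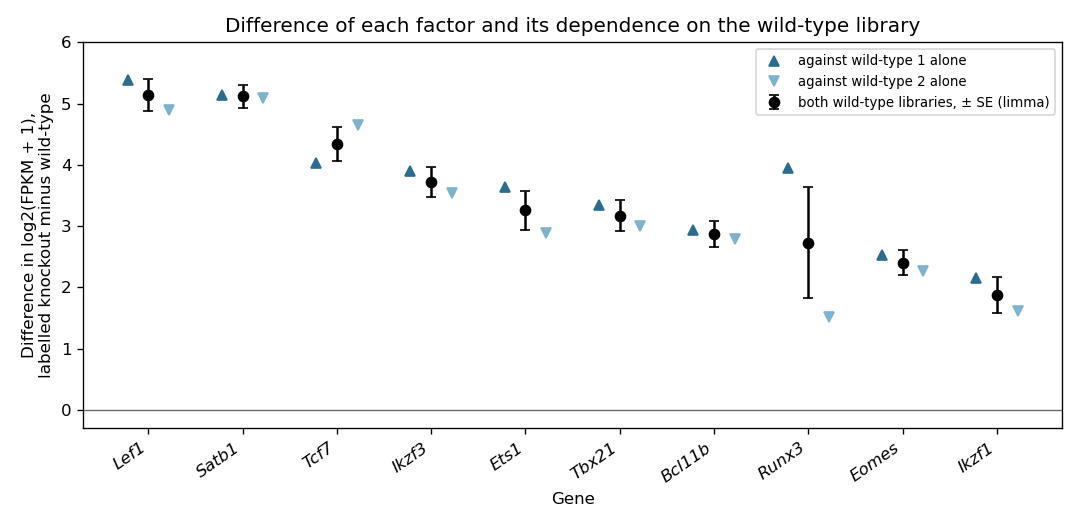
Difference in log2(FPKM + 1), labelled knockout minus wild-type, of each factor: black points with limma's standard error use all 4 libraries, and triangles use a single wild-type library. All values lie above 0; the triangles of Runx3 are the farthest apart, at 3.95 and 1.51.

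By level per transcript length, the order in the libraries labelled knockout was Tcf7 (mean 135 ± 8.64 FPKM, SD, n = 2), Ets1 (100.1 ± 1.82), Satb1 (80.2 ± 2.70), Lef1 (78.1 ± 6.44), Runx3 (15.1 ± 2.27), Ikzf3 (14.0 ± 0.322), Tbx21 (11.7 ± 0.662), Bcl11b (7.64 ± 0.439), Ikzf1 (5.99 ± 0.652) and Eomes (4.87 ± 0.243). Satb1 and Lef1 overlapped each other, as did Runx3 and Ikzf3; the other neighbours did not overlap. In the wild-type libraries the means were led by Ets1 (9.92 ± 3.93 FPKM, SD, n = 2) and Tcf7 (5.85 ± 2.02), followed by Runx3 (2.32 ± 3.24), Satb1 (1.34 ± 0.0467), Lef1 (1.27 ± 0.530), Ikzf1 (0.927 ± 0.509), Tbx21 (0.412 ± 0.241), Bcl11b (0.185 ± 0.0901), Ikzf3 (0.151 ± 0.200) and Eomes (0.111 ± 0.142). In wild-type every pair of neighbours overlapped. All 10 factors reached 1 FPKM in both libraries labelled knockout, against 3 in the first wild-type library and 6 in the second.

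Since these factors are made by lymphocytes, their levels were set beside lymphocyte markers of the same libraries. In bulk RNA, a change in the number of cells of a type and a change in RNA per cell cannot be told apart. Of 13 T cell markers 11 rose and none fell, and their sum was 1659 and 1568 FPKM in the knockout-labelled libraries, against 15.9 and 64.0 FPKM in wild-type, where Cd247 was listed at 0 in the first library. Of 7 B cell markers 5 rose and none fell, with sums of 696 and 685 FPKM against 6.72 and 39.0 FPKM. Of 6 NK cell markers 5 rose and none fell, with sums of 299 and 284 FPKM against 1.78 and 16.4 FPKM; Ncr1 was listed at 0 in both wild-type libraries and Klre1 in the first. Of those that rose, 1 of 11 T cell, 2 of 5 B cell and 4 of 5 NK cell markers had no wild-type library at 1 FPKM, entered the test through the libraries labelled knockout alone and so had to differ. By their sums these markers moved with the factors, and their part in the differences of the factors was not tested.

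**Figure D3:**
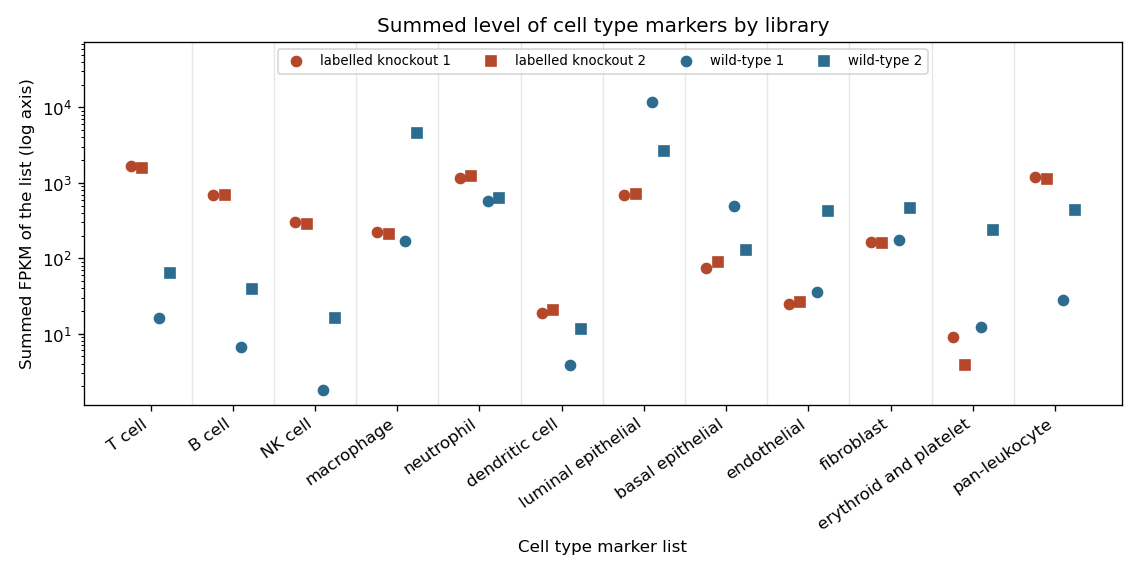
Summed FPKM (log axis) of each list of cell type markers by library, with symbols as in the plot of the factors. T, B and NK cell lists are higher in the libraries labelled knockout, the luminal epithelial list is lower, and the macrophage and endothelial lists are highest in the second wild-type library.

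Expressed as a share of the T cell marker sum in the same library, most factors no longer separated the groups. As a share of the general white blood cell markers most still did. How many of all genes separate under either ratio was not computed, and the contrast was not tested. Both denominators differed between the wild-type libraries: 15.9 and 64.0 FPKM for T cell markers, 28.1 and 433 FPKM for the general markers. This contrast is therefore not read as a trait of the factors. Relative to T cell markers, for 6 of the 10 (Satb1, Tcf7, Lef1, Bcl11b, Runx3 and Eomes) the libraries labelled knockout lay between the wild-type libraries. Lef1 was at 4.98% and 4.69% of the T cell marker sum in the libraries labelled knockout, against 5.63% and 2.57% in wild-type, and Bcl11b at 0.479% and 0.467% against 0.764% and 0.389%. Eomes was at 0.304% and 0.300% against 0.0686% and 0.330%. For these genes the level relative to T cell markers was nearly equal in both libraries labelled knockout and varied in wild-type.

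Ets1, Ikzf1 and Tbx21 made up a lower share of the T cell marker sum in the libraries labelled knockout than in either wild-type library. Ets1 was at 5.96% and 6.47% in the libraries labelled knockout, against 44.9% and 19.8% in wild-type, and Ikzf1 at 0.389% and 0.352% against 3.56% and 2.01%. Tbx21 was at 0.674% and 0.773% against 1.52% and 0.911%. Ikzf3 alone had a higher share, at 0.859% and 0.880% in the libraries labelled knockout, against 0.0609% and 0.457% in wild-type. With 2 libraries a group, an exact permutation test cannot reach 0.05, and no test was made of these shares. The wild-type shares rest on a small marker sum.

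**Figure D4:**
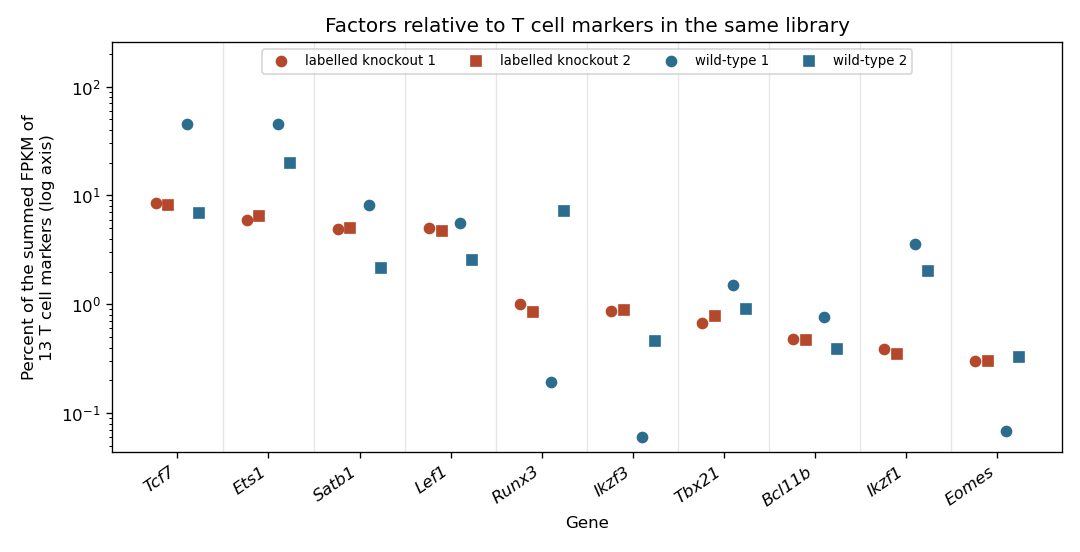
Each factor's FPKM as a percentage of the summed FPKM of 13 T cell markers in the same library (log axis). The red pairs fall between the blue points for 6 genes, below both for Ets1, Ikzf1 and Tbx21, and above both for Ikzf3.

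Other cell types also make some of these factors; Ets1 is abundant in endothelium, and Ikzf1 is made by many blood cells. Of 8 endothelial markers 5 were tested and none passed; the 8 summed to 25.1 and 26.4 FPKM in the knockout-labelled libraries, against 35.3 and 420 FPKM in wild-type. The 8 macrophage markers summed to 222 and 210 FPKM, against 167 and 4541 FPKM, and none passed. Both sums were thus highest in the second wild-type library. In FPKM as deposited, 9 of the 10 factors, all but Tcf7, were higher there than in the first, Satb1 only slightly (1.37 against 1.30 FPKM). How many of all genes were higher there was not computed. That library also had the larger FPKM total (449838 against 402436), so the count describes the list alone. The T, B and NK cell marker sums given above were also higher in the second wild-type library than in the first. The dendritic cell list, with Clec9a listed at 0 in 3 of the 4 libraries, summed to 19.0 and 20.4 FPKM, against 3.86 and 11.5 FPKM, and the neutrophil list, with 3 of 7 genes risen, to 1164 and 1243 FPKM, against 573 and 626 FPKM. The part of these cells in the values of the factors was not tested.

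Markers of luminal mammary epithelium, the labelled tumor cell, were present in every library: the 8 luminal markers summed to 698 and 718 FPKM in the knockout-labelled libraries, against 11689 and 2612 FPKM in wild-type, with 1 of 8 past the threshold and lower. Basal markers summed to 74.5 and 90.5 FPKM, against 501 and 130 FPKM, and fibroblast markers to 165 and 161 FPKM, against 173 and 470 FPKM. The erythroid and platelet list summed to 9.18 and 3.87 FPKM, against 12.2 and 237 FPKM. The 4 genes of white blood cells in general, with none past the threshold, summed to 1203 and 1137 FPKM in the knockout-labelled libraries, against 28.1 and 433 FPKM in wild-type. As a share of that sum, 7 of the 10 factors (Satb1, Lef1, Bcl11b, Ikzf3, Runx3, Tbx21 and Eomes) were higher in both libraries labelled knockout than in either wild-type library, and for Tcf7, Ets1 and Ikzf1 the libraries labelled knockout lay between the wild-type libraries. Against it, Lef1 was at 6.87% and 6.47% in the libraries labelled knockout and at 3.19% and 0.380% in wild-type. How many of all genes separate the groups under this ratio was not computed, and the ratio was not tested. Its denominator differed widely between the first and second wild-type libraries, at 28.1 and 433 FPKM. Macrophage markers did so too, at 167 and 4541 FPKM.

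Relatives of the factors within the same gene families did not share their direction as a group. Of 34 relatives (partner subunit Cbfb included) 26 were tested; 2 rose, 5 fell and 19 did not pass, with a median difference of -0.04 that was 0.02 when libraries were rescaled to a common total. Both that rose had no wild-type library at 1 FPKM and all 5 that fell had no knockout-labelled library there, so each entered the test through its higher group alone and had to differ. Those that rose were Spib, an ETS factor of B cells and plasmacytoid dendritic cells (11.5 and 9.80 FPKM in the knockout-labelled libraries, against 0.380 and 0.389 FPKM in wild-type; limma, adjusted p = 0.024), and Ikzf4, the gene of EOS (2.75 and 2.56 FPKM against 0.0447 and 0.230 FPKM; limma, adjusted p = 0.0252). The calls of Etv1, Etv4 and Tcf7l1 among those that fell were each lost under at least 1 of the 3 other scalings (highest adjusted p = 0.0532, 0.0531 and 0.0526), with no change of sign; with a pseudocount of 0.01 Etv5 alone of the 5 still passed (adjusted p = 0.0492; Tcf7l2 0.0512). Ikzf4 and the relatives below 5 FPKM are named for their values.

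The TCF/LEF family held differences of both signs. Tcf7l2, an effector of Wnt signalling in epithelia, was at 0.714 and 0.488 FPKM in the knockout-labelled libraries, against 3.15 and 4.43 FPKM in wild-type, and fell by 1.57 (SE 0.25; limma, adjusted p = 0.0362). Tcf7l1 was at 0.780 and 0.265 FPKM, against 2.54 and 2.61 FPKM (-1.25, SE 0.25; limma, adjusted p = 0.0483). Tcf7 and Lef1 thus had the opposite sign from Tcf7l1 and Tcf7l2 in every scaling.

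Among ETS genes, the PEA3 group member Etv1 was at 0.455 and 0.138 FPKM in the knockout-labelled libraries, against 7.72 and 3.32 FPKM in wild-type, and fell by 2.25 (SE 0.43; limma, adjusted p = 0.046), as did Etv4 (-0.98) and Etv5 (-1.51). Among the epithelial ETS genes, Elf5 was at 0.895 and 0.990 FPKM against 14.7 and 5.65 FPKM. Ehf was at 2.59 and 2.39 FPKM against 25.0 and 10.1 FPKM, and Elf3 at 3.51 and 3.40 FPKM against 22.7 and 9.62 FPKM. Elf5, Ehf and Elf3 differed by -2.40, -2.28 and -1.83 and did not pass (limma, adjusted p = 0.0515, 0.0542 and 0.0708). Nor did Ets2, the closest relative of Ets1, at 21.2 and 18.0 FPKM in the knockout-labelled libraries, against 60.0 and 31.4 FPKM in wild-type (-1.11, SE 0.38; limma, adjusted p = 0.117). Elf1, which is broadly made in lymphocytes, was at 42.4 and 40.2 FPKM against 20.3 and 9.31 FPKM (1.51, SE 0.41; limma, adjusted p = 0.0809).

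The other ETS genes above 5 FPKM did not pass either. Spi1, the myeloid factor PU.1, was at 39.5 and 41.0 FPKM in the knockout-labelled libraries, against 6.47 and 144 FPKM in wild-type, and Fli1, made by blood and endothelial cells, at 20.0 and 20.0 FPKM against 0.210 and 10.6 FPKM. Elk3 was at 2.97 and 3.75 FPKM against 2.59 and 15.1 FPKM. Elf2 differed by 0.54, Etv6 by -0.85 and Gabpa by 0.02, the last with a sign that turned under another scaling. Of the RUNX group, Runx1 was at 3.30 and 3.64 FPKM against 3.98 and 3.59 FPKM, and the partner subunit Cbfb at 24.5 and 20.7 FPKM against 9.41 and 13.8 FPKM (0.92, SE 0.27; limma, adjusted p = 0.0915).

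**Figure D5:**
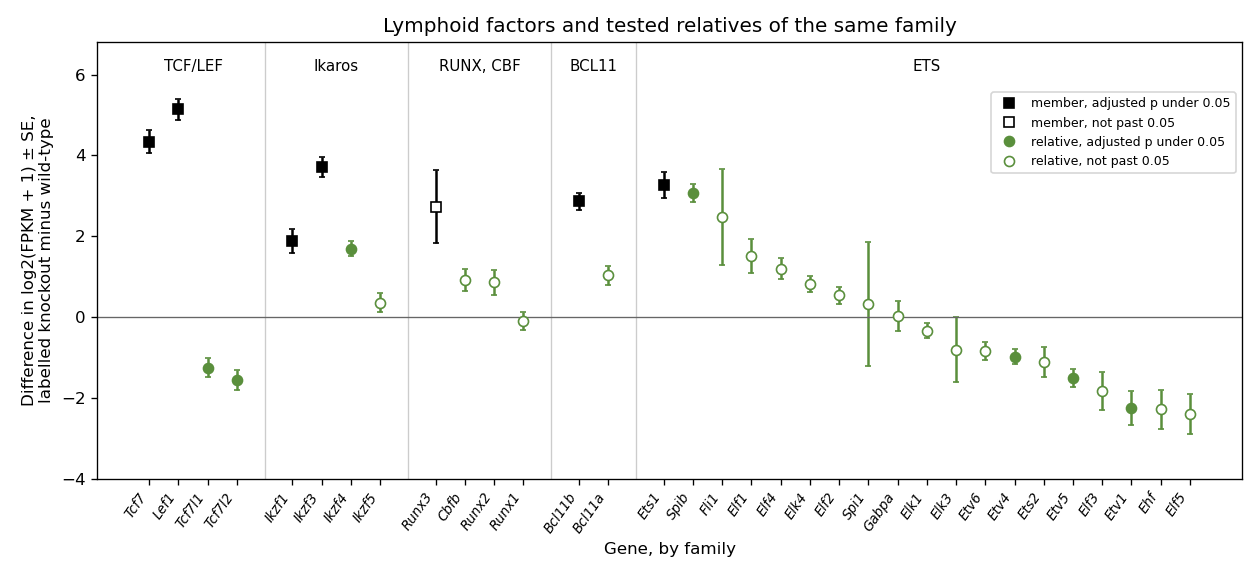
Difference in log2(FPKM + 1) with limma's standard error, labelled knockout minus wild-type, for the factors (black squares) and the tested relatives of their families (green circles); filled symbols are past an adjusted p of 0.05. Tcf7 and Lef1 lie above 0 and Tcf7l1 and Tcf7l2 below it, and the ETS genes spread from Ets1 at 3.26 to Elf5 at -2.40.

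Other transcription factors of lymphocytes were compared from lists that overlap in part with the families above. Of 30 genes of T and innate lymphoid cells, 29 had a row and 27 were tested; 8 rose, none fell and 19 did not pass. Of the 8, 5 had no wild-type library at 1 FPKM and so had to differ once tested. Stat4, which carries interleukin-12 signals, was at 78.5 and 74.7 FPKM in the knockout-labelled libraries, against 0.993 and 2.83 FPKM in wild-type (4.81, SE 0.39; limma, adjusted p = 0.024). Myb rose by 3.14, Tox, a factor of T cell development and exhaustion, by 2.91, Gfi1 by 2.23 and Nfatc3 by 2.15, and Themis, a signalling protein of thymocytes that is no transcription factor, by 3.06. Gata3, which luminal mammary cells share with T helper cells, was at 11.3 and 9.45 FPKM against 18.8 and 4.48 FPKM and did not pass.

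Of 16 B lineage factors, all tested, 6 rose, none fell and 10 did not pass. Of the 6, 5 (all but Foxo1) likewise had no wild-type library at 1 FPKM. Pou2af1, a coactivator of B cells, was at 21.0 and 23.2 FPKM in the knockout-labelled libraries, against 0.864 and 0.444 FPKM in wild-type (3.81, SE 0.25; limma, adjusted p = 0.024). Pax5, which holds B cell identity, was at 1.29 and 2.77 FPKM in the knockout-labelled libraries and listed at 0 in both wild-type libraries (limma, adjusted p = 0.0455, and up to 0.0518 under another scaling). Foxo1 rose by 1.79, Irf4 by 1.98 and Bach2 by 1.47, besides Spib.

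Among 24 cofactors of these proteins 5 rose, 2 fell and 17 did not pass, while with a pseudocount of 0.01 2 rose and 2 fell. The Groucho genes differed in direction: Tle4 was at 11.1 and 9.995 FPKM in the knockout-labelled libraries, against 2.11 and 2.48 FPKM in wild-type, and Tle2 at 1.82 and 2.24 FPKM against 13.2 and 9.60 FPKM (limma, adjusted p = 0.0287 and 0.0307). The corepressor gene Ctbp2 fell by 1.91, while Chd3 and Rbbp4, both of nucleosome remodelling complexes, rose by 1.40 and 1.14, and the corepressor gene Sin3a by 1.27. Ctnnb1, the beta-catenin gene, was at 51.5 and 53.4 FPKM against 71.8 and 61.5 FPKM and did not pass.

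Of 28 genes tied to these factors in lymphocytes, several of which also stand in the marker lists, 26 were tested; 23 rose, none fell and 3 did not pass (Cd4, Il7r and Cxcr3, named for their values). Of the 23, 7 had no wild-type library at 1 FPKM. Il2rb, a receptor chain induced by T-box factors, was at 130 and 118 FPKM in the knockout-labelled libraries, against 2.12 and 3.99 FPKM in wild-type. Cd8b1, the CD8 beta chain, was at 131 and 125 FPKM against 0.936 and 2.58 FPKM. Cd3d, which encodes the CD3 delta subunit, rose by 5.82. The Wnt targets Axin2 and Nkd1 were too low to be tested, with Axin2 at 0.639 and 0.727 FPKM against 0.00931 and 0.0450 FPKM and Nkd1 at 0.0214 and 0.0849 FPKM against 0.156 and 0.233 FPKM.

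The genes outside these lists whose profile over the 4 libraries lay nearest to the mean profile of the 10 factors were Jakmip1 (Euclidean distance 0.0693 on centred log2(FPKM + 1) values), Siglecg (0.194), Tmem64 (0.198), Slamf1 (0.199) and Ccr8 (0.207). Jakmip1 was at 14.5 and 12.9 FPKM in the knockout-labelled libraries, against 0.173 and 0.565 FPKM in wild-type. Of the factors themselves, Ikzf3 (0.270), Ets1 (0.296) and Tbx21 (0.335) lay nearest to that mean and Satb1 (1.68) and Lef1 (1.68) farthest from it. With 4 libraries, each distance rests on 4 values.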

How the data were processed

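RNA of sorted mouse mammary tumor cells was sequenced after a low-input Clontech SMARTer mRNA library, per the labels' protocols, with 2 libraries titled Lsd1 knockout and 2 titled wild-type. The deposited values are FPKM; the header names no unit, which was read from unequal column totals and stepped low values. The submitters' processing notes name the build mm9; which aligner, quantification tool and annotation were used is not given in the sources used here. Rows of 92 spike-in sequences were left out.

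A gene entered the test where 2 or more libraries had 1 FPKM or more. The test was limma (version 3.58.1, R 4.3.3) on log2(FPKM + 1) values, using a robust prior with a trend and no term but genotype. P-values were adjusted by Benjamini-Hochberg over every tested gene, with a threshold of 0.05. Changes of low genes are understated on this scale. The script was tested on simulated data in which only well-expressed genes were changed, so that test does not cover calls of low genes. No read totals are given: relative depth was read from whole-number ratios, within 0.2%, of values under 0.1 FPKM, and reads per gene are rough, from the longest GENCODE M21 transcript and single-transcript genes.

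The members and gene lists were chosen with earlier results of these data known. By rule the text names the 10 factors, Kdm1a, family relatives whose mean reached 5 FPKM in either group, up to 6 genes of lowest p in each other list, and the 5 nearest profiles; 3 genes that the rule takes are not reported here. Ikzf4, Tcf7l1, Tcf7l2, Etv4, Etv5, Runx1, Gata3, Ctnnb1, Axin2, Nkd1, Cd4, Il7r and Cxcr3 were named after their values were seen. Adgre1 was matched through its older name Emr1, and Zfp683 had no row under its symbol. Alternatives were other pseudocounts, filters, scalings and priors, leaving out each library, and a replicate block.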

Additional observations from a re-analysis of the deposited data

How the results depend on the processing

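All 10 factors kept a positive difference in each of the 13 alternatives that gave a value; with a filter of 5 FPKM in 2 libraries Eomes was not tested. The number of factors that rose was 9 in the main fit and between 6 and 9 under the other pseudocounts, filter, scalings, prior and the replicate block, but 0 with no filter on low values (adjusted p of 0.123 to 0.317, and 9 factors at an unadjusted p under 0.05). With no filter 1 gene in all rose and 0 fell in limma (4462 at an unadjusted p under 0.05). With a pseudocount of 0.01, 443 genes rose and 380 fell, against 1059 and 778 in the main fit. When each library was left out in turn, the count of factors that rose ran from 0 (without either library labelled knockout) to 10 (without either wild-type library), genes that rose from 0 to 4269, genes that fell from 0 to 3643, and the difference of Kdm1a from -1.25 to -0.0866. A single library left in a group was then assumed to vary like the other group. Median centring moved the split from 1059 higher and 778 lower to 884 and 848.

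The deviations of libraries with the same replicate number had a correlation of -0.06 over the tested genes. With 2 libraries a group, this value cannot show whether the number marks a shared batch, and no pairing is stated. With the number as a replicate block, 8 factors, 346 genes in all that rose and 155 that fell passed, and Ikzf1 (adjusted p = 0.0612) did not. Under that block 0 cofactors passed in limma, against 5 that rose and 2 that fell without it (adjusted p of those 7 under it 0.0544 to 0.0992), and among family relatives Spib rose and 0 fell, against 2 and 5 (adjusted p of Tcf7l2 0.0644 and of Etv5 0.0663). Of B lineage factors 2 rose under it, against 6. Low wild-type levels of Ikzf3, Eomes and Runx3, roughly 1 to 3 reads in the first wild-type library, limit the size of their differences. The causes of these changes were not tested.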
